A study of Mus musculus with 4 samples.

Results

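Aminoacyl-tRNA synthetases join each amino acid to its transfer RNA, the step that supplies ribosomes with charged tRNA. Cells translate in the cytosol and in mitochondria, and most amino acids have a separate nuclear gene for each compartment. Genes for the mitochondrial enzymes mostly carry a name ending in 2. A 2-cell mouse embryo translates RNA stored by the oocyte and starts to transcribe its own genome. The genes described here were chosen by name: 20 cytosolic synthetase genes, 16 mitochondrial synthetase genes, and Aimp1 and Aimp2, whose proteins are scaffolds of the multi-tRNA synthetase complex. Of these 38 genes 37 were found among the 30049 genes of the deposited table, and Aimp1 was not analysed here.

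Wild type zygotes from BDF1 parents (crosses of C57BL/6 and DBA/2) were taken at 18 h after hCG and kept for 24 h in KSOM medium, which is made for embryos before implantation. The control group was cultured in KSOM alone and the DMSO group in KSOM with 2% dimethyl sulfoxide, a common solvent. Each group has 2 libraries of RNA from embryos that reached the 2-cell stage, with 50 embryos collected per group. The labels do not say whether the libraries of a group came from separate collections, so that the p-values below measure the spread between libraries, which may be technical.

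Values are TPM, a length-corrected share of a library's transcripts, so that levels can be compared between genes. TPM keep no depth, so the depth of each library is unknown and no counting error can be given. The genes of the table summed to 768174 TPM (control replicate 1), 780527 TPM (control replicate 2), 772487 TPM (DMSO replicate 1) and 799166 TPM (DMSO replicate 2). The 37 genes together held 0.108% of that sum in each control library, and 0.0652% and 0.0736% in DMSO replicates 1 and 2. The 20 most abundant genes of each library took 22.1% and 23.6% of the sum in controls, against 29.4% and 35.1% with DMSO, and the part of this shift in the differences below was not tested. These are bulk libraries of whole embryos, in which fewer cells with a transcript and less of it per cell cannot be told apart.

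Markers of the labelled stage were present. Of 7 genes that mark the 2-cell stage, Zscan4c, Zfp352, Tcstv1, Tcstv3, Usp17lc and Obox3 were at 33.3 TPM or more in every library, and Zscan4d was at 7.12 TPM or more. Zfp352, Tcstv1, Tcstv3 and Usp17lc rose in DMSO-treated embryos by limma with Benjamini-Hochberg adjustment, 4 of 7 where 6.42% of all genes tested rose. Zscan4c, Zscan4d and Obox3 were not called, with log2 fold changes of 0.78, -0.05 and -0.03. The 8 oocyte markers summed to 200.05 and 119 TPM in controls, against 714 and 406 TPM with DMSO, with Bmp15, the 1 gene of that list that rose, as the most abundant, while Nlrp5 was at 0.142 TPM or less in every library. Gdf9, Ooep and Zar1 had both DMSO libraries above both controls, and Zp3 and Mos both below, without being called, and Padi6 had a log2 fold change of -0.80 with overlapping groups. With Bmp15, 4 of the 7 tested did not overlap with DMSO the higher, against 31.1% of all genes tested. With DMSO the lower these were 2 of 7, against 38.7%. Bmp15 was the 1 of 7 called higher, against 6.42% of all genes tested. The 9 cumulus and granulosa cell markers summed to between 0.932 and 2.42 TPM per library. Amh and Inhba were listed at 0 in all of them, and the highest single value was 1.52 TPM for Tnfaip6. Cyp19a1 had the highest level of the list in the other 3 libraries, with 0.422 and 0.494 TPM in controls, against 1.26 and 1.08 TPM with DMSO. The 4 sperm markers summed to 2.84 and 3.38 TPM in controls, against 13.4 and 8.48 TPM with DMSO, most of it Prm2. Prm1 was at 0 and 0.526 TPM in controls, against 0.267 and 0 TPM with DMSO, with overlapping groups. Prm2 and Tnp1 rose, 2 of 2 genes tested where 6.42% of all genes tested rose. Tnp1 was at 0.281 and 0 TPM in controls, against 2.08 and 1.69 TPM with DMSO. It reached the filter at a mean of 1 TPM only through the DMSO libraries, so that its call carries little weight. Tnp2 was listed at 0 in all libraries. The 4 blood and oviduct markers summed to 22.0 and 21.1 TPM and to 30.0 and 37.7 TPM, most of it Ovgp1, with Hbb-bs listed at 0 in 3 libraries. The part of oocyte, sperm, blood and oviduct RNA in the differences below was not tested.

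In control embryos the cytosolic synthetases covered a wide range of levels. Rars, for arginine, had the highest level at 185 ± 25.9 TPM (SD, n = 2), followed by Qars, for glutamine, at 159 ± 1.16 TPM and Nars, for asparagine, at 69.6 ± 9.86 TPM. The difference between Rars and Qars was about as large as the spread of Rars. Hars, Gars, Aars and Mars1, for histidine, glycine, alanine and methionine, followed between 30.1 and 33.6 TPM and could not be ordered beyond their spread. The genes at the low end were Dars (aspartate) at 3.01 ± 0.240 TPM, Lars (leucine) at 1.33 ± 0.237 TPM and Vars (valine) at 1.16 ± 1.06 TPM. Kars, for lysine, was listed at 0 in all 4 libraries, and Sars, for serine, at 0.455 and 0 TPM in controls, against 0.278 and 0 TPM with DMSO. Every cell needs both enzymes, and these values are given only as listed, since a listed 0 does not show that the RNA was absent. Kars and Gars are known to serve both compartments.

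The mitochondrial synthetases were lower than the cytosolic ones in most pairs. Fars2, for phenylalanine, had the highest level of them, with 47.3 and 29.7 TPM in the control libraries, followed by Cars2 (cysteine) at 24.3 ± 1.11 TPM and Ears2 (glutamate) at 11.7 ± 3.53 TPM (SD, n = 2). The other 13 were under 10 TPM in every control library, and Aars2, Lars2 and Rars2 had a mean under 1 TPM over the 4 libraries. In 12 of 17 pairs for the same amino acid the cytosolic gene had the higher control mean, with a median ratio of 4.50.

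**Figure D1:**
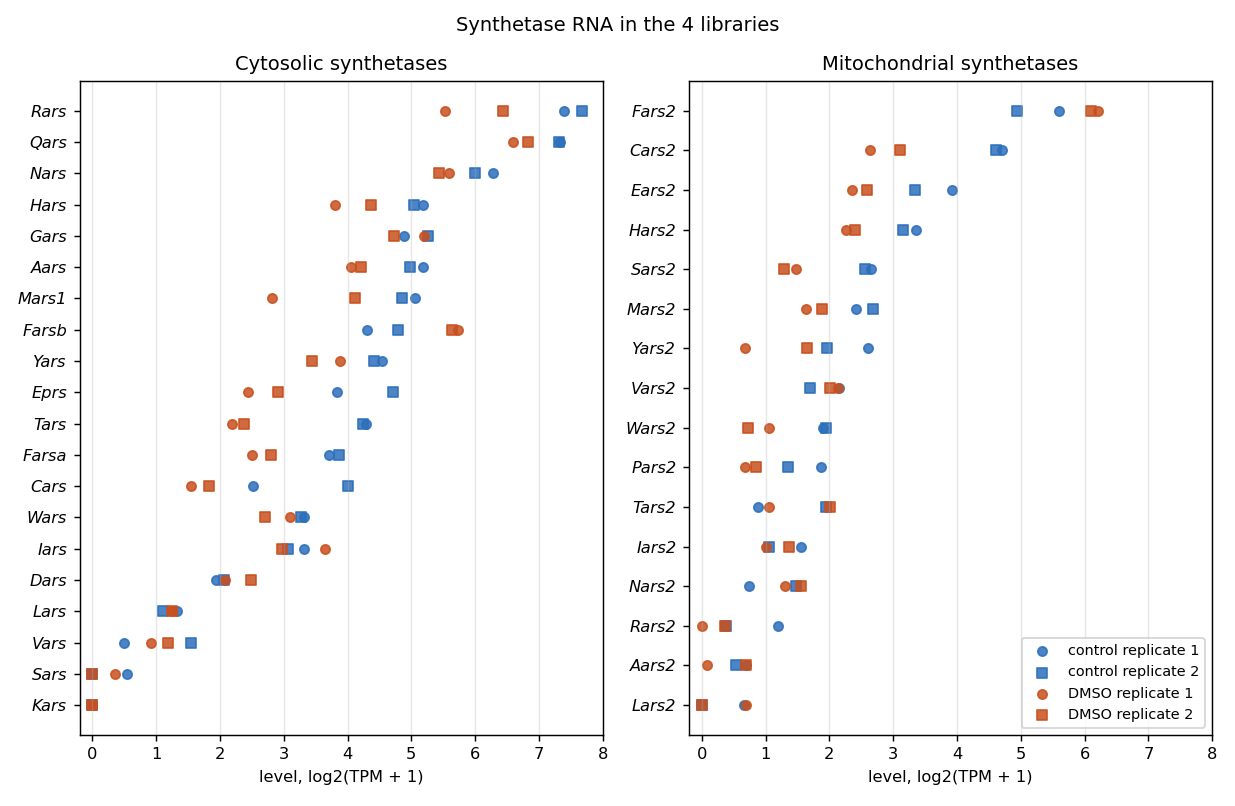
RNA level of each cytosolic (left) and mitochondrial (right) synthetase gene as log2(TPM + 1), 1 point per library, blue for control and orange for DMSO, with genes in the order of their control mean. Most orange points lie to the left of the blue ones, Dars, Farsb and Fars2 show the opposite order, and Kars is at 0 in all libraries.

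The main question was which of these genes differed in embryos cultured with DMSO. All genes averaging 1 TPM or more were compared on log2(TPM + 1) with limma, which borrows variance information across genes, and p-values were adjusted over all 12038 genes tested. Fold changes on that scale understate the change of low genes. Of all genes tested 1697, or 14.1%, were called lower at an adjusted p-value under 0.05 and 773, or 6.42%, higher, 20.5% in all, so that 31.3% of the calls were higher. This split moved to 1121 lower and 1076 higher, or 49.0% higher, with quantile normalization, and to 42.9% higher with median-ratio scaling. For 1 gene, the smallest p that an exact permutation of 2 against 2 libraries can give is 0.333.

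Of the 20 cytosolic genes 18 passed the filter on low values. Of these 4 were called lower in DMSO-treated embryos, namely Tars, Eprs, Rars and Farsa, and 1, Farsb, was called higher, or 22.2% and 5.56% against 14.1% and 6.42% of all genes. The other 13 were not called. With median-ratio scaling and with quantile normalization limma called 1 of the 18 lower, Tars, against 1262 and 1121 of all 12038 genes tested. Farsb was called higher with both. The groups did not overlap, with DMSO the lower, for 12 of the 18 genes, or 66.7%, against 38.7% of all genes tested, and with DMSO the higher for 2, against 31.1%. The median log2 fold change of the 18 genes was -0.72, against -0.09 for all genes tested. Of the 16 mitochondrial genes 13 passed the filter, and 2 were called lower, Cars2 and Sars2, or 15.4%, a share close to the 14.1% of all genes. By limma 0 were called higher, and 7 had an unadjusted p under 0.05 in either direction, which 40.2% of all genes tested had. The groups did not overlap, with DMSO the lower, for 8 of the 13 and, with DMSO the higher, for 1, Fars2. Their median log2 fold change was -0.85. The median of the cytosolic genes was 0.13 above that of the mitochondrial genes, and this difference ranged from -0.06 without DMSO replicate 1 to 0.34 with quantile normalization. The difference was not tested.

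Tars (ENSMUSG00000022241, chromosome 15 of GRCm38 from 11382301 to 11399665), which charges threonine tRNA, was at 18.5 and 17.9 TPM in controls, against 3.55 and 4.22 TPM with DMSO. The libraries of each group lay close together and far from those of the other group. Its log2 fold change was -1.98 (standard error (SE) 0.30, adjusted p = 0.0185 by limma), the lowest among the synthetase genes tested. Eprs (ENSMUSG00000026615, chromosome 1 from 185363044 to 185428360) encodes a fused enzyme for glutamate and proline. It was at 13.2 and 25.3 TPM in controls, against 4.40 and 6.49 TPM with DMSO. The control libraries differed from each other, but both stood above both DMSO libraries. Its log2 fold change was -1.60 (SE 0.40, adjusted p = 0.0386 by limma).

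Rars (ENSMUSG00000018848, chromosome 11 from 35808381 to 35834506) fell from 167 and 203 TPM to 45.1 and 85.9 TPM. DMSO replicate 1 was the lower of the treated libraries, and the groups did not overlap. The log2 fold change was -1.55 (SE 0.36, adjusted p = 0.0328 by limma). Since Rars and Qars together made up 50.5% and 52.2% of the summed TPM of the cytosolic genes in control replicates 1 and 2, and 38.7% and 47.7% in DMSO replicates 1 and 2, they weigh on any sum over the family. Qars, whose enzyme sits in the same complex, was at 160 and 158 TPM in controls, against 95.1 and 113 TPM with DMSO. Its log2 fold change of -0.62 was not called (adjusted p = 0.115 by limma).

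Cytosolic phenylalanyl-tRNA synthetase is built from 2 kinds of subunit, the catalytic alpha subunit encoded by Farsa and the beta subunit encoded by Farsb, which form a tetramer with 2 copies of each. RNA of the alpha subunit fell and RNA of the beta subunit rose. Farsa (ENSMUSG00000003808, chromosome 8 from 84856989 to 84869257) was at 12.1 and 13.6 TPM in controls, against 4.69 and 5.996 TPM with DMSO, a log2 fold change of -1.13 (SE 0.31, adjusted p = 0.0466 by limma). Farsb (ENSMUSG00000026245, chromosome 1 from 78417975 to 78488897) was at 18.6 and 26.8 TPM in controls, against 52.1 and 48.5 TPM with DMSO, a log2 fold change of 1.13 (SE 0.29, adjusted p = 0.0415 by limma). Neither gene showed overlap between the groups. The ratio of Farsb to Farsa TPM was 1.54 and 1.97 in control replicates 1 and 2, and 11.1 and 8.09 in DMSO replicates 1 and 2. Both calls were lost without the filter on low values and when any 1 library was left out. The call of Farsa was also lost with median-ratio scaling and with quantile normalization, and that of Farsb when limma was run without a variance trend. Of the 31-base words of Farsb 8.13% also occur in transcripts of Sgpp2, which was at 0.658 TPM or less in every library.

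Fars2, the mitochondrial phenylalanyl-tRNA synthetase (ENSMUSG00000021420, chromosome 13 from 36117412 to 36726280), acts as a single chain. It was at 47.3 and 29.7 TPM in controls, against 72.8 and 67.8 TPM with DMSO. Both DMSO libraries were above both control libraries, but the log2 fold change of 0.89 was not called (SE 0.31, adjusted p = 0.0826 by limma). The log2 fold change was 0.56 without control replicate 2 and 1.21 without control replicate 1. With quantile normalization it was called higher.

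**Figure D2:**
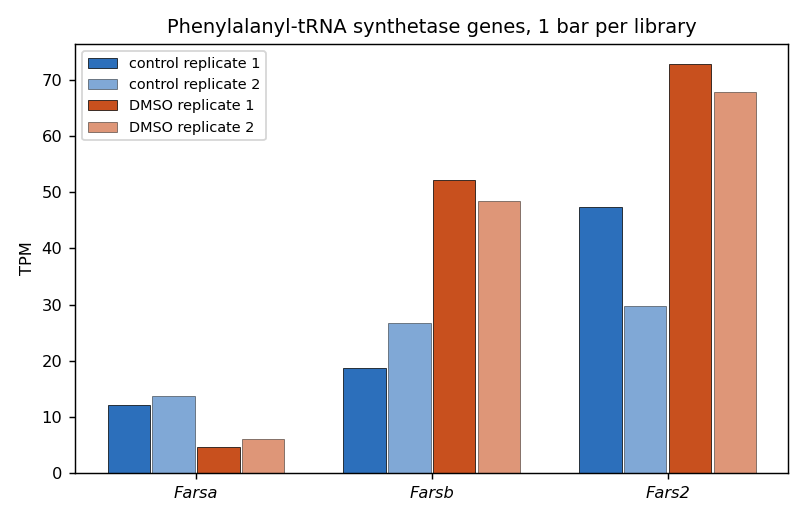
TPM of the genes for phenylalanyl-tRNA synthetase, 1 bar per library, blue for control and orange for DMSO, with the lighter shade for replicate 2. Farsa is lower in both DMSO libraries, and Farsb and Fars2 are higher in both, up to 52.1 and 72.8 TPM.

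The 100 bases before the RefSeq start of Farsa and Farsb are shown because these subunits moved in opposite directions. Both are in RefSeq promoters of GRCm38.p6, on the strand of the gene. Capitals in Farsa (chr8:84856886-84856985, plus strand) mark CGGAAG, the core that ETS factors such as GABP bind, here on the opposite strand, and capitals in Farsb (chr1:78488898-78488997, minus strand) mark the E-box CACGTG.
Farsa: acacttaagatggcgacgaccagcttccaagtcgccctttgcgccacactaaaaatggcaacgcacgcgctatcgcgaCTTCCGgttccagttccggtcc
Farsb: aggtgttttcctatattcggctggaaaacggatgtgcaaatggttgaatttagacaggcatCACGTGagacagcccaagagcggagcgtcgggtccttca
CGGAAG was found on either strand in 16.9% of the 32851 promoters of 300 bases (250 before and 50 after the start), and CACGTG, which reads the same on both strands, in 7.15%. CACGTG was also found in the promoters of Aars, Iars, Tars and Ears2, with log2 fold changes of -0.95, 0.12, -1.98 and -1.16. A match is a description of these letters and does not show that a factor binds there.

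**Figure D3:**
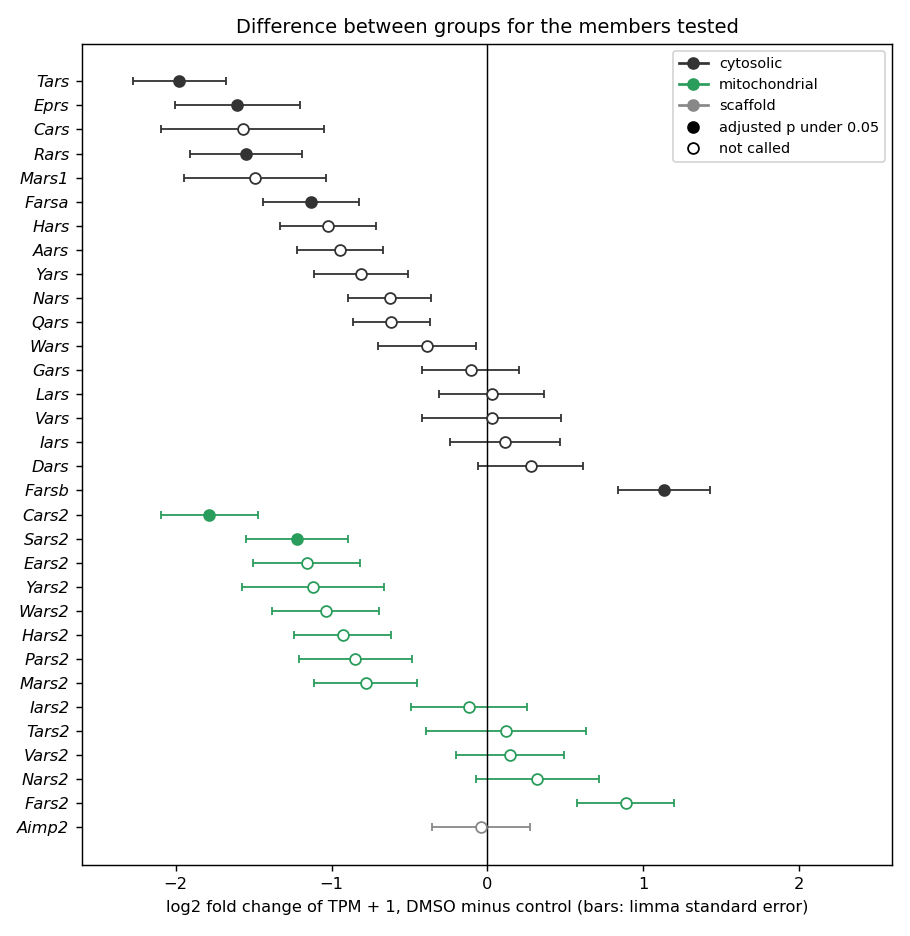
Log2 fold change of TPM + 1 (DMSO minus control) with the limma standard error for the 32 genes that passed the filter, by class. Filled points have an adjusted p-value under 0.05, and these are 4 cytosolic and 2 mitochondrial genes on the lower side and Farsb on the higher side.

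Another 8 cytosolic genes had both DMSO libraries below both control libraries without being called, Qars among them, where 38.7% of all genes tested did not overlap on that side. Mars1 was at 32.4 and 27.8 TPM in controls, against 6.04 and 16.3 TPM with DMSO, a log2 fold change of -1.49 (adjusted p = 0.0597 by limma). DMSO replicate 1 held the lowest value, and without it the log2 fold change was -0.84. Cars was at 4.70 and 15.0 TPM in controls, against 1.93 and 2.54 TPM with DMSO, with a log2 fold change of -1.57 that ranged from -2.32 to -0.82 as single libraries were left out (adjusted p = 0.0740 by limma). Here the control libraries stood far apart. Hars and Aars each fell short of the threshold, with log2 fold changes of -1.02 and -0.95 (adjusted p = 0.0599 and 0.0536 by limma), and 13.8% of the 31-base words of Aars also occur in transcripts of Exosc6, whose level was not analysed here. Yars, Nars and Wars had log2 fold changes of -0.81, -0.63 and -0.39. The groups overlapped for Gars, Iars, Lars and Vars, with log2 fold changes between -0.11 and 0.12, and the sign of each changed when 1 or another library was left out. Of the words of Iars 14.5% also occur in the processed pseudogene Gm4849, at 0.334 TPM or less in every library. Dars, at 2.84 and 3.18 TPM in controls, against 3.21 and 4.61 TPM with DMSO, had no overlap, with DMSO the higher. On that side 31.1% of all genes tested did not overlap. The log2 fold change of Dars, 0.28, was not called (adjusted p = 0.559 by limma).

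In mammals the synthetases Eprs, Iars, Lars, Qars, Mars1, Kars, Rars and Dars are held in one complex by the proteins of Aimp1, Aimp2 and Eef1e1. Of the 8 complex synthetases 7 were tested and 2 were called lower, Eprs and Rars, or 28.6% against 14.1% of all genes tested, with a median log2 fold change of -0.62. Both calls were lost with median-ratio scaling and with quantile normalization, which left 0 of the 7 called lower. Of the 12 cytosolic genes outside the complex 11 were tested, 2 were called lower and 1 higher, or 18.2% and 9.09% against 14.1% and 6.42%, with a median of -0.81. With each of these scalings 1 of the 11 was called lower. The members of the complex therefore ranged from -1.60 to 0.28 on the log2 scale, and the difference between the sets was not tested. Aimp2 (chromosome 5 from 143902704 to 143909847) was at 54.7 and 54.5 TPM in controls, against 41.4 and 67.9 TPM with DMSO. The DMSO libraries lay on either side of the controls, and the log2 fold change was -0.04 (SE 0.32, adjusted p = 0.928 by limma). Its sign changed with median-ratio scaling, with quantile normalization and without DMSO replicate 1, and 27.8% of its 31-base words also occur in transcripts of Eif2ak1, so that its value is uncertain. Eef1e1 (chromosome 13 from 38644207 to 38659058), the remaining scaffold, fell from 136 and 169 TPM to 44.7 and 61.8 TPM, with no overlap and a log2 fold change of -1.51 (SE 0.29, adjusted p = 0.0239 by limma).

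Synthetases fall into catalytic classes I and II, which differ in the fold of the active site. Apart from Eprs, which holds 1 domain of each class, all 9 cytosolic class I genes were tested, and 1 was called lower, or 11.1% against 14.1% of all genes. By limma 0 of them were called higher, and 5 had an unadjusted p under 0.05, against 40.2% of all genes. Of the 10 class II genes 8 were tested, 2 called lower and 1 higher, against 14.1% and 6.42% of all genes. The medians were -0.62 and -0.79 on the log2 scale. Among mitochondrial genes the medians were -1.04 for the 7 class I genes tested and -0.36 for the 6 class II genes tested. In each class 1 was called lower, or 14.3% and 16.7%, shares close to the 14.1% of all genes.

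Cars2 (ENSMUSG00000056228, chromosome 8 from 11513977 to 11550783), the mitochondrial enzyme for cysteine, was at 25.1 and 23.5 TPM in controls, against 5.23 and 7.64 TPM with DMSO. The libraries of each group lay close together. The log2 fold change was -1.78 (SE 0.31, adjusted p = 0.0219 by limma), and 4.94% of its 31-base words are shared with Naxd, the neighbouring gene, at 8.17 and 7.84 TPM in controls, against 0.0756 and 3.16 TPM with DMSO. Sars2 (ENSMUSG00000070699, chromosome 7 from 28741992 to 28753871), for serine, was at 5.29 and 4.89 TPM and at 1.78 and 1.45 TPM, a log2 fold change of -1.22 (SE 0.32, adjusted p = 0.0439 by limma). Both DMSO libraries were far below both control libraries at a low level. Cars2, Sars2, Tars and Farsb were also called with median-ratio scaling and with quantile normalization, while Eprs and Rars were not.

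A further 6 mitochondrial genes had both DMSO libraries below both control libraries without being called. With the 2 called ones these were 61.5% of the 13 tested, against 38.7% of all genes tested. Ears2 was at 14.2 and 9.18 TPM in controls, against 4.14 and 5.03 TPM with DMSO (log2 fold change -1.16, adjusted p = 0.0565 by limma). Yars2, Wars2, Hars2, Pars2 and Mars2 had log2 fold changes of -1.12, -1.04, -0.93, -0.85 and -0.78, with limma adjusted p-values from 0.0728 to 0.132. That of Yars2 ran from -1.60 to -0.64 as single libraries were left out. The groups overlapped for Iars2, Tars2, Vars2 and Nars2, with log2 fold changes from -0.12 to 0.32. All of these were under 4 TPM in every library. Of the words of Iars2 22.4% also occur in Rab3gap2, which was at 16.8 and 12.2 TPM in controls, against 53.5 and 31.6 TPM with DMSO, so that the value of Iars2 is uncertain.

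Summed over each set, the cytosolic genes were at 647 and 693 TPM in controls, against 363 and 417 TPM with DMSO. The mitochondrial genes summed to 125 and 96.6 TPM and to 99.7 and 103 TPM, and here the groups overlapped. The ratio of the cytosolic to the mitochondrial sum was 5.17 and 7.17 for controls against 3.64 and 4.05 with DMSO. That ratio rested on Fars2, which held 37.8% and 30.8% of the mitochondrial sum in control embryos and 73.0% and 65.9% in DMSO-treated embryos. Without Fars2 the mitochondrial genes summed to 77.9 and 66.9 TPM in controls, against 27.0 and 35.1 TPM with DMSO, and the ratio was 8.31 and 10.4 for controls against 13.5 and 11.9 with DMSO. The order of the groups in this ratio was therefore the opposite without 1 gene.

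Set side by side for the same amino acid, 13 of 17 pairs had both genes tested. Both log2 fold changes were below 0 in 7 pairs, both above 0 in 2, and of opposite sign in 4. The cytosolic gene had the lower value in 8 pairs and the mitochondrial gene in 5, and the first of these counts ran from 6 without control replicate 2 to 10 without control replicate 1. For cysteine both were low, with -1.57 for Cars and -1.78 for Cars2, and for histidine Hars at -1.02 stood beside Hars2 at -0.93, although 6.68% of the words of Hars also occur in Hars2. For threonine Tars was at -1.98 and Tars2 at 0.12, but Tars2 had only 0.841 and 2.86 TPM in controls, against 1.08 and 3.04 TPM with DMSO, with a standard error of 0.51. For asparagine Nars was at -0.63 and Nars2 at 0.32, but Nars2 was at -0.05 without control replicate 1. The signs of Iars, Iars2, Tars2, Vars and Vars2 also changed as single libraries were left out, so that the counts of pairs by sign are not stable. None of these differences between genes was tested.

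**Figure D4:**
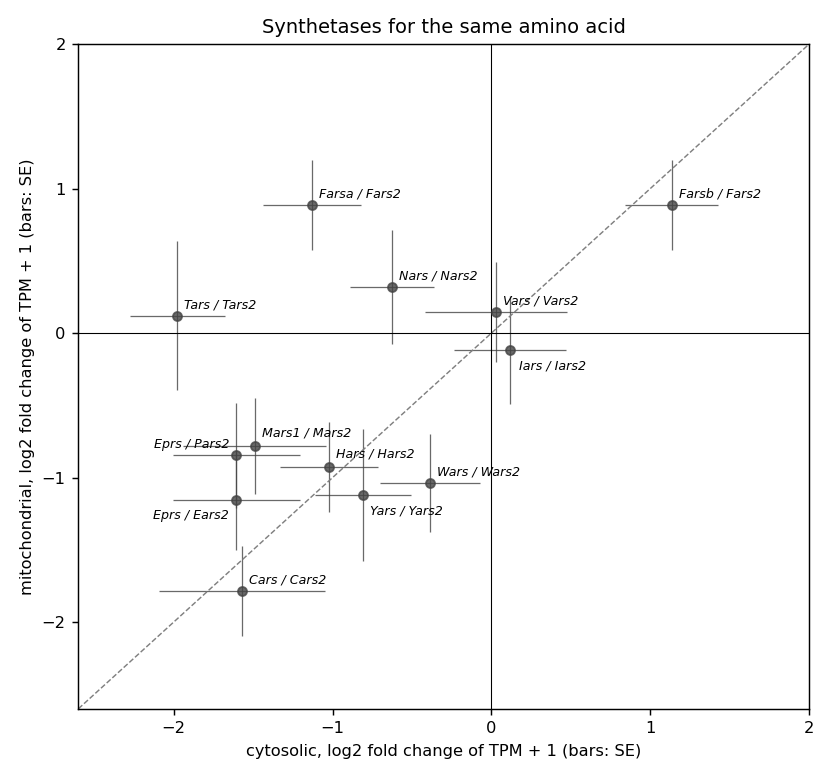
Log2 fold change of TPM + 1 (DMSO minus control) of the cytosolic gene (horizontal) and of the mitochondrial gene (vertical) for the same amino acid, with limma standard errors and a dashed line of equality, for the 13 pairs with both genes tested. Pairs with Eprs share that gene, as do those with Fars2, and 7 pairs lie in the lower left field.

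The letters TGATGNAA make up the start of the composite C/EBP and ATF element, through which the stress factor ATF4 is known to act on synthetase genes in other cells. They were found on either strand in the promoters of 5 of the 13 cytosolic genes with a RefSeq promoter entry, Aars, Gars, Iars, Tars and Yars, in 0 of 14 mitochondrial genes and in 3.97% of all promoters. The matches of Gars, Iars, Tars and Yars are printed with 12 bases on either side, from GRCm38.p6 and on the strand of the gene, with the match in capitals.
Gars (chr6:55037959-55037990, plus strand): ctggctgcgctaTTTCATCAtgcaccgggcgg
Iars (chr13:49682125-49682156, plus strand): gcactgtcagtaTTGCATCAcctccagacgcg
Tars (chr15:11399654-11399685, minus strand): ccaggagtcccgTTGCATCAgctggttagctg
Yars (chr4:129189894-129189925, plus strand): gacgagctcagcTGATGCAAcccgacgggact
The genes with these letters ranged widely, with log2 fold changes of -1.98 for Tars, -0.95 for Aars, -0.81 for Yars, -0.11 for Gars and 0.12 for Iars. Of the 6 motifs searched, CGGAAG was present in 8 of 14 mitochondrial and 6 of 13 cytosolic promoters against 16.9% of all, CACGTG in 1 and 4 against 7.15%, and the letters GCGC, any base and TGCGC, bound by NRF1, in 2 and 3 against 4.60%. CCAAT was present in 6 and 7 against 37.4% and GGGCGG in 11 and 8 against 35.7%. Cars, Hars, Hars2, Lars, Nars, Pars2, Rars, Vars and Wars had no promoter entry. The absence of a match says only that these letters are not in these windows.

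Genes around the charging of tRNA were looked up from lists by function. Of 53 genes 47 were tested, 8 were called lower and 1 higher, or 17.0% and 2.13% against 14.1% and 6.42% of all genes tested. With median-ratio scaling and with quantile normalization 5 of the 47 were called lower, against 1262 and 1121 of all 12038 genes tested. Among factors of mitochondrial translation 2 of 9 genes tested fell, or 22.2% against 14.1% of all genes tested. Tufm (chromosome 7 from 126487361 to 126490731), the elongation factor that brings charged tRNA to the mitochondrial ribosome, was at 20.9 and 43.8 TPM in controls, against 2.82 and 4.10 TPM with DMSO. The groups were far apart, although the control libraries differed by more than the DMSO libraries did, and the log2 fold change was -2.83 (SE 0.42, adjusted p = 0.0181 by limma). Mtif2, the initiation factor, fell from 3.36 and 3.22 TPM to 0.597 and 1.08 TPM (log2 fold change -1.23, adjusted p = 0.0491 by limma). Its mean with DMSO was 0.839 TPM, so that Mtif2 passed the filter only through the control libraries. Gfm1, Gfm2, Mtrf1, Mtrf1l, Mtif3, Mrrf and Tsfm were not called, with log2 fold changes from -0.73 to 0.30. Mitochondria have no separate glutaminyl-tRNA synthetase, and their glutamine tRNA is made through Ears2 and the amidotransferase of Gatb, Gatc and Qrsl1. Of these genes and Mtfmt, which formylates the initiator methionine tRNA, 0 of 4 were called by limma, 1 (Qrsl1) had an unadjusted p under 0.05, and their log2 fold changes ran from -1.02 to -0.11.

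Of 14 genes for tRNA ends, splicing and export 12 were tested and 1 was called, or 8.33% lower against 14.1% of all genes tested. Trnt1, which adds the CCA end on which every amino acid is loaded, was at 5.44 and 6.41 TPM in controls, against 2.18 and 1.95 TPM with DMSO (log2 fold change -1.17, adjusted p = 0.0477 by limma). Trmt10c, a subunit of mitochondrial RNase P, missed the threshold at -1.20 (adjusted p = 0.0516 by limma). The export factor Xpot was listed at 0 in every library, which does not show that its RNA was absent. Of 3 genes that remove wrong amino acids from tRNA, Aarsd1 and Dtd1 fell, 2 of 3 where 14.1% of all genes fell, with log2 fold changes of -1.61 and -1.41 (adjusted p = 0.0412 and 0.0332 by limma). Dtd2, at 0.958 and 0.977 TPM and at 2.31 and 0.702 TPM, was not called.

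For selenocysteine, which is made on its tRNA, 4 of 5 genes were tested, and 1 was called lower and 1 higher, against 14.1% and 6.42% of all genes tested. Eefsec, the elongation factor for that tRNA, rose from 2.43 and 1.03 TPM to 10.0 and 6.16 TPM (log2 fold change 1.75, standard error 0.41, adjusted p = 0.0347 by limma). Trnau1ap, which binds the same tRNA, fell from 25.02 and 20.9 TPM to 8.79 and 10.5 TPM (log2 fold change -1.17, adjusted p = 0.0387 by limma). Pstk and Sepsecs, enzymes that make selenocysteine on the tRNA, were not called, with log2 fold changes of 1.05 and 0.21 (adjusted p = 0.213 and 0.838 by limma). As single libraries were left out, Pstk ran from 0.26 to 1.83 and Sepsecs from -0.91 to 1.33. Of the 14 genes that sense uncharged tRNA or respond to it, 13 were tested and 1 was called, or 7.69% lower against 14.1% of all genes. This was Psat1, an enzyme of serine synthesis, which fell from 307 and 293 TPM to 92.1 and 115 TPM (log2 fold change -1.53, adjusted p = 0.0209 by limma). Atf4 itself was at 187 and 167 TPM in controls, against 151 and 173 TPM with DMSO, with overlapping groups and a log2 fold change of -0.13 (adjusted p = 0.719 by limma). The other 11 genes of the list that were tested were not called, with log2 fold changes from -0.87 (Eif2ak4) to 0.997 (Slc7a11). Among them Asns, Ddit3, Trib3 and Chac1 were at -0.47, -0.65, -0.58 and 0.44. As single libraries were left out, Asns ran from -1.25 to 0.31 and Ddit3 from -1.29 to -0.005. Over the same settings Trib3 ran from -0.84 to -0.33 and Chac1 from 0.27 to 0.61. Slc7a11, a cystine transporter, was at 3.26 and 2.18 TPM in controls, against 7.41 and 5.41 TPM with DMSO, with no overlap (adjusted p = 0.0842 by limma). Over the 13 genes the groups did not overlap for 4 with DMSO the higher, or 30.8% against 31.1% of all genes tested, and for 2 with DMSO the lower, or 15.4% against 38.7%. The kinase Eif2ak4, which binds uncharged tRNA, was at 5.68 and 1.84 TPM and at 0.856 and 2.06 TPM, with overlapping groups.

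**Figure D5:**
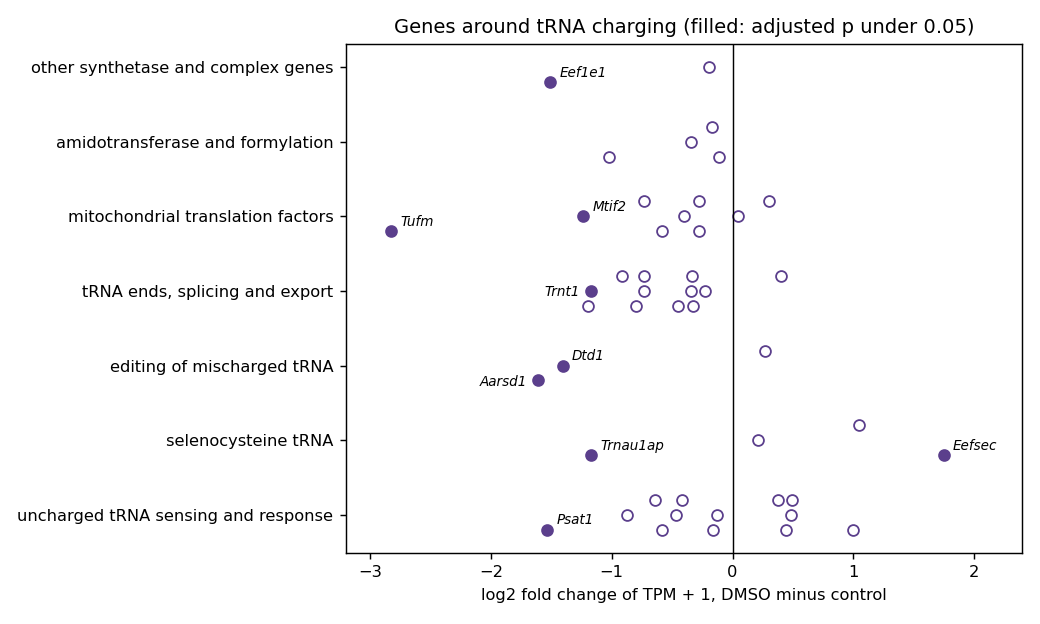
Log2 fold change of TPM + 1 (DMSO minus control) for the 47 related genes tested, by list, with filled points and names for an adjusted p-value under 0.05. Eefsec is the only filled point on the higher side, and Tufm has the lowest value at -2.83.

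The number of calls changed as single libraries were left out. Without control replicate 1, control replicate 2 or DMSO replicate 1, limma called 0 genes of the whole table, with 3745, 2602 and 3078 at an unadjusted p under 0.05. Without DMSO replicate 2 it called 1883 genes, among them Tars, Rars, Mars1 and Cars2. Without the filter on low values limma called 0 genes, with 5368 at an unadjusted p under 0.05.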

How the data were processed

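RNA of mouse 2-cell embryos was measured in 2 control and 2 DMSO libraries, grouped by the sample titles. The authors pseudomapped reads with kallisto to the Ensembl transcriptome of GRCm38, summed transcripts per gene with tximport and deposited TPM values (kallisto version not given in the sources used here). A count test would not fit this unit. Symbols and coordinates were from GENCODE M21 (GRCm38), which named 29668 of 30049 identifiers. For genes whose mean reached 1 TPM, log2(TPM + 1) was compared in limma 3.58.1 under R 4.3.3 (eBayes with a trend, no replicate block, Benjamini-Hochberg adjustment, call at 0.05). Full values were given for the called members with the largest changes (up to 6 cytosolic and 4 mitochondrial), for called members against the direction of their class and for Aimp2, with the others summarised. Fars2, Qars, Mars1, Cars, Tars2, Ears2 and uncalled related genes were described after their values were seen. Members, lists and motifs were chosen with earlier results of these data known. Members' shared sequence was the share of 31-base words found in transcripts of other genes. The limma step was tested on simulated data. Alternatives were a pseudocount of 0.1, no filter, a filter at a mean of 5 TPM, quantile normalization, median-ratio scaling, no trend, a replicate block and leaving out each library. Python 3.11.15 and pandas 2.3.3 made the tables.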

Additional observations from a re-analysis of the deposited data

How the results depend on the processing

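Without a filter on low values limma called 0 genes in either direction, and so 0 cytosolic, mitochondrial, complex or related genes, although 5368 genes had an unadjusted p under 0.05. With a mean of at least 5 TPM, 1684 of all 7470 genes tested were called lower, against 1697 of 12038 in the main comparison. In that smaller set 7 cytosolic genes were called lower, 4 of them outside the complex, and 0 related genes higher. The median of the cytosolic genes was -0.95 (fewer genes were tested). At that filter the cytosolic gene had the lower value in 3 of 5 pairs, against 8 of 13. Without a trend 0 cytosolic genes were called higher. With median-ratio scaling 1 cytosolic gene was called lower, 0 of the complex and 1 outside it, with 5 related genes lower. Of all 12038 genes tested 1262 were called lower with that scaling. Quantile normalization gave 1121 genes lower in all, 1 cytosolic gene lower, 0 of the complex and 1 outside it, 1 mitochondrial gene higher, 5 related genes lower, and a cytosolic median of -0.50. The cause was not tested.

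Both groups carry replicate numbers 1 and 2, and the labels do not say that these mark a pairing. Deviations of same-numbered libraries correlated across genes at r = 0.35. With the replicate block, 2981 of all 12038 genes tested were called lower and 2151 higher. Among them 11 cytosolic genes were lower (4 of the complex and 7 outside it). For mitochondrial genes 5 were lower and 1 (Fars2) higher, and 13 related genes were lower and 3 higher.

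As single libraries were left out, the lone library of a group being assumed to vary like the others, calls ran from 0 to 1276 genes lower and from 0 to 607 higher. They ran from 0 to 3 cytosolic genes lower, 0 higher, 0 to 1 mitochondrial lower, 0 to 2 of the complex, 0 to 1 outside it, and 0 to 5 related genes lower and 0 higher. The cytosolic gene was the lower in 6 to 10 pairs. Medians ran from -0.95 to -0.50 over all settings for the cytosolic genes. The called synthetase genes kept their direction in each alternative in which they were tested, and Sars2 was not tested at a mean of at least 5 TPM. The difference between the cytosolic and the mitochondrial median was 0.32 with a pseudocount of 0.1 and 0.34 with quantile normalization. TPM keep no depth, so it is unknown how far depth limits genes near 1 TPM.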
